A study of Drosophila melanogaster with 3 samples.

Results

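The 4 Snail family genes of Drosophila melanogaster, sna (snail), esg (escargot), wor (worniu) and scrt (scratch), were examined for binding of the zinc-finger protein Neu2 in early embryos. They were 4 of 13945 annotated protein-coding genes, and calls were assigned to a gene when the summit lay in the gene body or within 10 kb to either side. The genes were selected on the deposited peak signal and positions, which earlier results of these data had shown, so every value below is a description and none was tested. The material was whole embryos of both sexes, 2 to 4 h old, from 1 transgenic line with Neu2 carrying GFP at its C-terminus, which was precipitated with an antibody against GFP, and the chromatin was sonicated to 200 to 800 bp. The promoter that drives the fusion is not given in the labels used here. The 3 biological replicates formed 1 group, without an untagged or mutant group among the samples, so that positions and genes, but no conditions, could be set side by side. The optimal list, the authors' set of reproducible peaks over all libraries, held 1471 peaks, of which 2 lay in the windows of the Snail family genes.

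Snail family proteins are transcription factors with a row of C2H2 zinc fingers near the C-terminus that recognise E-box sequences, and most act as repressors by recruiting corepressors such as CtBP. In the fly embryo, sna is transcribed in the ventral cells that become mesoderm, under the control of Dorsal and Twist, and its product keeps neuroectodermal genes off there. esg maintains imaginal and stem cells, wor acts in neural stem cells (neuroblasts) together with sna and esg, and scrt is expressed throughout the nervous system. Neu2 belongs to the fly family of zinc-finger proteins with a ZAD domain, and GFP-tagged lines of this kind report where the fusion protein sits on chromatin.

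The positions on which the description turns are shown first, on the dm6 build (RefSeq Release 6 genome), 5′ to 3′. The 250 bp upstream of the sna transcription start site (TSS) are shown because they hold the summit of the strongest peak of the family, and the 80 bp upstream of the other TSSs because they allow the core promoters to be compared. Each of these sequences ends at the base before the TSS and is on the strand of the gene. Capitals mark any match, on either strand, to 1 of 15 short words that are spelled out further on.
sna, chr2L:15478261-15478510, minus strand: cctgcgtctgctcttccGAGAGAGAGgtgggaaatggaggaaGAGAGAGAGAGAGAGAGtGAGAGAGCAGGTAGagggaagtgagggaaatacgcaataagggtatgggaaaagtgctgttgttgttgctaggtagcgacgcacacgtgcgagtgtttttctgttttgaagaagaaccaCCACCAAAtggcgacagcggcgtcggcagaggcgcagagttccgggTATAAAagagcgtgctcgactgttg
esg, chr2L:15333786-15333865, plus strand: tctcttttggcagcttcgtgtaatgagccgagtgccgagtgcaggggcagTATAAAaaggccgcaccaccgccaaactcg
wor, chr2L:15425581-15425660, minus strand: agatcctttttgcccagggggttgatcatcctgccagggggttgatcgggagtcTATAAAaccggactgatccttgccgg
scrt, chr3L:3983816-3983895, plus strand: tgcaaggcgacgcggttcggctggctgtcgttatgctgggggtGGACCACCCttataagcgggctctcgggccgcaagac

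The strongest calls of esg, wor and scrt lay away from their promoters. The bases up to 50 bp to either side of these summits are shown on the strand of the gene, with capitals as above, because they are the sequences closest to the signal at each gene.
esg, optimal peak, chr2L:15331608-15331708, plus strand: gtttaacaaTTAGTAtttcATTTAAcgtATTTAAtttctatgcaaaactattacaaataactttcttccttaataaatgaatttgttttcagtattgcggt
esg, strongest call under the optimal threshold, chr2L:15325841-15325941, plus strand: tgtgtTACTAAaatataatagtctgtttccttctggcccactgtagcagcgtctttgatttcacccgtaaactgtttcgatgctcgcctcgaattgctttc
wor, strongest call, chr2L:15432348-15432448, minus strand: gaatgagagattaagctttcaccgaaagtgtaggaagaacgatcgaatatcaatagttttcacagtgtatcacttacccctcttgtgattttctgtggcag
scrt, strongest call, chr3L:3978129-3978229, plus strand: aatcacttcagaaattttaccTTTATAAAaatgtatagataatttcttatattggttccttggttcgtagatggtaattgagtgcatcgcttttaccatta

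The family was unequal: sna carried a peak among the strongest in the genome at its TSS, esg carried a weak optimal peak upstream, and wor and scrt carried none. An optimal summit lay in the window of 2 of the 4 genes, beside 32.3% of all protein-coding genes, and within 1 kb of a TSS for 1 of the 4, beside 8.73% of all. The signal is the authors' own value per call and is read only within a list. In the list called on the pooled replicates, which held 30000 calls of peaks and background together, the strongest signal in the window was 402 for sna, 93.4 for esg, 59.9 for wor and 49.1 for scrt. The median of the strongest signal over all genes with a pooled call was 68.0, so sna and esg were above it and wor and scrt below it. Of all protein-coding genes, 98.8% had a lower strongest pooled signal than sna, 70.7% lower than esg, 43.6% lower than wor and 31.0% lower than scrt. The lowest optimal peak had a signal of 88.6, which esg exceeded by little and twi (88.2), the mesoderm activator of sna, missed by little.

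**Figure D1:**
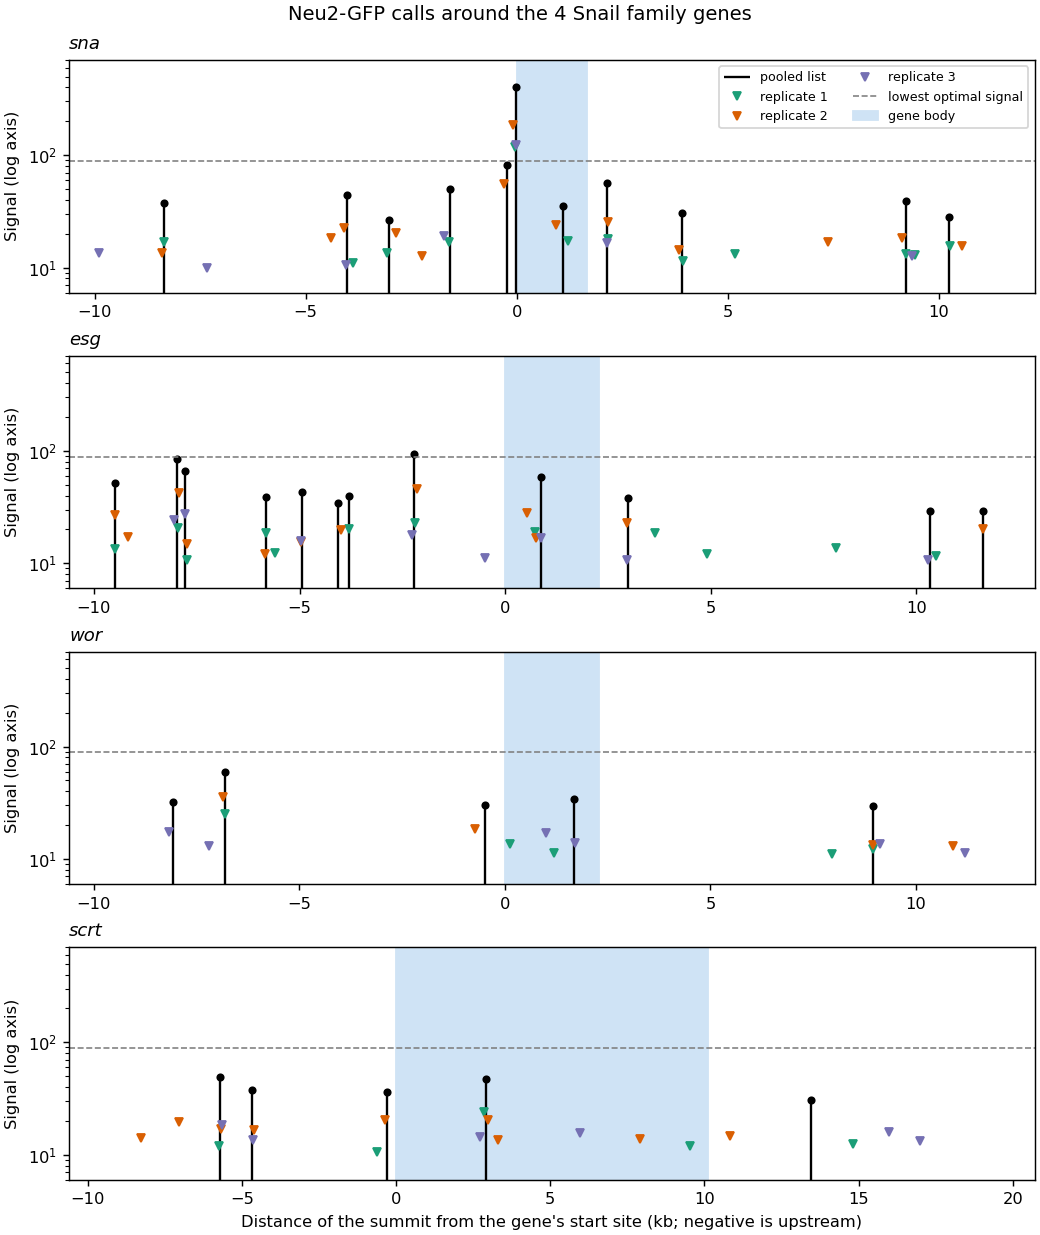
Calls around each of the 4 genes, with the distance of the summit from the TSS in kb on the x axis and signal on a log y axis, black stems for the pooled list, triangles for the replicates (each on the scale of its own list), shading for the gene body and a dashed line at the lowest optimal signal of 88.6. The pooled sna call at -28 bp stands far above every other stem, the esg call at -2208 bp just passes the line, and no stem of wor or scrt reaches it.

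Of the members, sna, which specifies the mesoderm, was the single gene of the family with an optimal peak at its promoter. In the pooled list, scrt had a weak call 285 bp upstream of its TSS (36.4, found in 1 replicate) and wor at -483 bp (30.3, found in none). The gene is FBgn0003448 at chr2L:15476593-15478260 on the minus strand. The optimal peak spanned chr2L:15478195-15478438, with its summit at 15478288, 28 bp upstream of the TSS. Its signal of 402 ranked 35 of 1471 and was 3.38-fold the median optimal signal of 119. Of the optimal summits, 13.1% (193 peaks) lay within 50 bp of a TSS, and the sna peak ranked 7 among them. It ranked 27 among the 794 optimal peaks within 500 bp of a TSS.

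The signal at the sna promoter was high in every library. Replicates 1, 2 and 3 had values of 118, 186 and 122, and the ranks among the 30000 calls of each list were 82, 16 and 16 in that order. Because the scale of the signal differed between libraries, values were scaled to the median over the optimal peaks in the same library (47.0, 47.8 and 33.1 in replicates 1, 2 and 3). The relative signal at sna was then 2.51, 3.90 and 3.69 in replicates 1, 2 and 3, with a mean of 3.37 ± 0.748 (SD, n = 3). All 3 libraries were thus well above the level of a typical optimal peak, with replicate 1 the lowest. The coefficient of variation was 22.2% at sna, beside a median of 23.4% over the 1399 optimal peaks with a call in every replicate list. Of the optimal peaks, 98.0% had a lower mean relative signal.

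The libraries differed in where they put the summit. It lay 30 bp upstream of the TSS in replicate 1 and 28 bp upstream in replicate 3, close to the pooled summit, but 93 bp upstream in replicate 2. A shoulder further upstream was called separately in the pooled list at -228 bp with a signal of 81.5, under the lowest optimal signal. Replicate 2 had a separate call there, at -294 bp, with a signal of 54.8 and rank 523, whereas the lists of replicates 1 and 3 held no separate call for it. Replicate 2 thus had 2 calls at the promoter, and both lay further upstream than the single call of replicates 1 and 3.

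**Figure D2:**
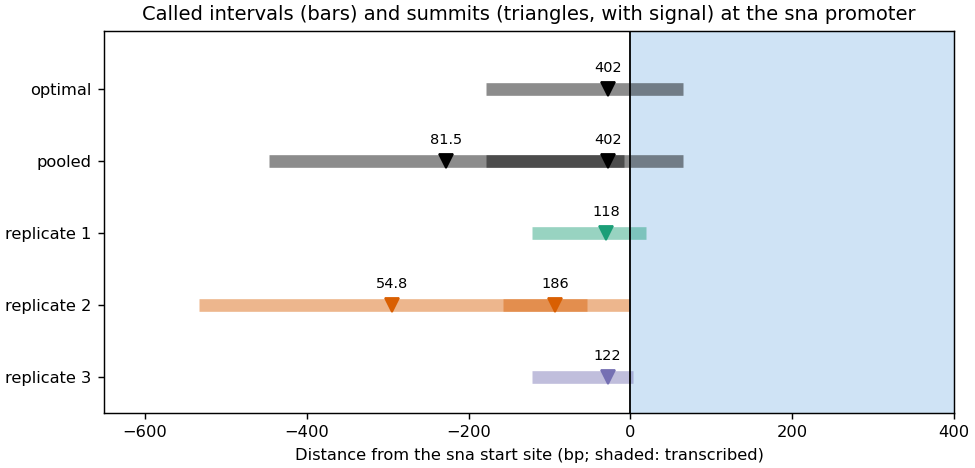
Called intervals (bars) and their summits (triangles, labelled with the signal) at the sna promoter in the optimal, pooled and replicate lists, against the distance from the TSS in bp on the x axis, with the transcribed side shaded. The summits of replicates 1 and 3 lie at -30 and -28 bp under the optimal summit, while replicate 2 has its summit at -93 bp and a separate call at -294 bp.

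The sna promoter sequence shown above held words for factors of the early embryo, but not at the summit of the optimal peak. The promoters of the other members held such words too. The 13 words searched on both strands were TATCGATA (the DNA replication-related element, DRE), CAGGTAG (bound by Zelda), CAGGTG (an E-box bound by Snail), CATATG and CACATG (E-boxes bound by Twist), GGGNNNTCC (a short form of the Dorsal site), GAGAGAG (bound by GAGA factor), GGTCACAC (Motif 1), AGGTGGCG (the core of the CTCF site), and 4 words taken from earlier word rankings of these peaks, which were TATCGA (contained in the DRE), then CTTAAA, followed by ATTTAA and lastly TACTAA. A further 2, TATAAA (the TATA box) and CNACNAAA, were added after the sna sequence had been seen. In the 250 bp upstream of sna, CAGGTAG lay 183 to 177 bp from the TSS, a word found in 1.499% of all 13945 promoters of that length. GAGAGAG had 9 matches in 3 separate stretches between 233 and 184 bp upstream, some of them overlapping, and was found in 5.37% of all promoters. CNACNAAA lay 71 to 64 bp upstream and was found in 19.2% of all promoters. GGGNNNTCC was absent from these 250 bp of sna but present in the other members, beside 4.66% of all promoters. It lay 99 to 91 bp upstream in esg, 215 to 207 bp in wor and 37 to 29 bp in scrt. The esg promoter also held GAGAGAG, 90 to 84 bp upstream. Of the 13 words, sna and esg thus had 2 each, and wor and scrt 1 each. None of the 13 words lay within 50 bp of the summit, but both added words did, beside 12.98% of all optimal summits for TATAAA and 11.6% for CNACNAAA. A match describes the letters only, and no match says nothing about the factor.

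A TATA word at the position of a core promoter was shared by most of the family. TATAAA lay on the strand of the gene 25 to 20 bp upstream of the TSS in sna, 30 to 25 bp upstream in esg and 26 to 21 bp upstream in wor. The scrt promoter had no TATAAA within 250 bp. The word lay within the stretch from 35 to 20 bp upstream in 3 of the 4 genes, beside 6.27% (874) of all 13945 promoters. As the word was added after it had been seen at sna, sna was bound to be among the 3. Among the 193 promoters with an optimal summit within 50 bp, 5 (2.59%) had it there, namely sna, MFS18, alphaTub84B, mRpL32 and CG10565, which were named after their values had been seen. Their pooled signals were 402 for sna, 174 for MFS18, 119 for alphaTub84B, 91.4 for mRpL32 and 89.2 for CG10565. Thus sna had the highest signal of this small group. The TATA word was shared by esg and wor, which had no optimal summit within 1 kb of their TSS. Neither had a pooled call within 250 bp of it, though wor had a weak one at -483 bp (30.3). Replicate 1 also had a wor call 121 bp past the TSS (13.5). The promoters of all 4 genes held less A+T than the median promoter of 62.8%, with 47.2% in sna, 46.4% in esg, 45.2% in wor and 40.0% in scrt.

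The remaining pooled calls around sna were weak. There were 11 pooled calls in its window, of which 1 was the optimal peak, 1 the shoulder and 9 others between 26.6 and 57.0. The strongest of the 9 lay downstream of the gene, 2142 bp from the TSS, with a pooled signal of 57.0. It was found in all 3 replicates, with a relative signal of 0.382, 0.532 and 0.502 in replicates 1, 2 and 3 and a mean of 0.472 ± 0.0794 (SD, n = 3). On the upstream side, toward Tim17b2, near which a distal enhancer of sna is known to lie, calls were found at -1582 bp (49.6), -3019 bp (26.6), -4027 bp (44.6) and -8345 bp (37.2). The call at -4027 bp was 2442 bp upstream of the Tim17b2 TSS and was found in all 3 replicates. None of the upstream calls reached the optimal threshold, and distances to the enhancer itself were not computed here. A call in the coding sequence, at 1090 bp past the TSS, had a pooled signal of 35.6.

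The optimal peak of esg, the gene of imaginal and stem cells, was weak and was highest in replicate 2. The whole lists of all 3 replicates held a call within 200 bp of its summit. The gene is FBgn0287768 at chr2L:15333866-15336138 on the plus strand. The summit lay at 15331658, 2208 bp upstream of the TSS, and its signal of 93.4 ranked 1297 of 1471, at 0.785 of the median optimal signal. Replicates 1, 2 and 3 had signals of 22.7, 46.1 and 17.9, with ranks of 3834, 868 and 5937. The relative signal was 0.483, 0.965 and 0.542 in replicates 1, 2 and 3, with a mean of 0.663 ± 0.263 (SD, n = 3). Replicate 2 was about level with a typical optimal peak and the others lay below it. When only the 1471 strongest calls of each replicate were used, as many as the optimal list held, the esg peak was matched within 200 bp in 1 replicate and the sna peak in all 3. When a replicate was left out, a match in both others was required. With 1 matching replicate, the esg peak could not meet this, so its count of 0 there was fixed. In the whole optimal list, 43.4% of peaks (638) were matched in 3 replicates and 21.9% (322) in 1. Of the optimal peaks, 2.52% had a lower mean relative signal than the esg peak.

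A further site upstream of esg lay just outside the threshold and was at a similar level. The pooled call at -7975 bp had a signal of 85.3 and rank 1586, compared with the lowest optimal signal of 88.6. The strongest calls within 200 bp had signals of 20.7, 41.9 and 27.6 in replicates 1, 2 and 3. The call of replicate 3, however, lay 192 bp from the summit and 8 bp from that of a neighbouring pooled call at -7775 bp (65.7), and the nearer call of that library, at -8050 bp, had a signal of 24.1 and rank 2086. With the shared call, the relative signal was 0.441, 0.876 and 0.836 in replicates 1, 2 and 3, with a mean of 0.718 ± 0.240 (SD, n = 3), and the neighbouring pooled call had the same 3 values, so the 2 calls could not be separated by replicate. By the rule used for the optimal peaks, a call within 200 bp among the 1471 strongest, the site at -7975 bp was matched in 2 replicates. These were replicate 2 at rank 1119 and replicate 3 at rank 1340, the latter by the shared call. The optimal esg peak was matched in 1. Counted by the nearest call only, the site was matched in replicate 2 alone. The TSS nearest to this site was that of nht, 6990 bp away, closer than that of esg.

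The other 9 pooled calls at esg lay between 29.4 and 58.0, with the strongest of them in the coding sequence 874 bp past the TSS. At the promoter of esg the pooled list held no call within 500 bp of the TSS. The sequence at the optimal esg summit held ATTTAA, a word found at 22.1% of optimal summits, and TACTAA, found at 7.61%, and the sequence at -7975 bp held TACTAA only. The optimal esg summit was rich in A+T, at 77.2% of the bases within 50 bp, whereas the sna summit had 40.6%, and the median of all optimal summits was 60.4%.

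For wor, the neuroblast member, no call in the window reached the optimal list. The gene is FBgn0001983 at chr2L:15423297-15425580 on the minus strand. Its strongest pooled call lay 6818 bp upstream of the wor TSS and 911 bp upstream of that of CG4161, with a signal of 59.9 and rank 3732. Replicate 1 had 25.2 there and replicate 2 had 35.5, but replicate 3 had no call within 200 bp. The relative signal was 0.536 in replicate 1 and 0.742 in replicate 2, with a mean of 0.639 ± 0.145 (SD, n = 2). The site thus reached a level near that of the optimal esg peak in the libraries that held it. None of the 15 words lay within 50 bp of this summit, although 3 of the 13 lay in the whole called interval. The coding call of wor, 1690 bp past the TSS, had a pooled signal of 33.9, was found in 1 replicate, and had CAGGTG and GGGNNNTCC within 50 bp.

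For scrt, the pan-neural member, the pooled signal was the lowest of the 4. In single libraries the order differed, as the strongest scrt call was above that of esg in replicate 1 (24 against 22.7) and above that of wor in replicate 3 (18.5 against 17.5). The gene is FBgn0004880 at chr3L:3983896-3994003 on the plus strand, and it is the single member away from the cluster on 2L. Its strongest pooled call lay 5717 bp upstream of the TSS with a signal of 49.1 and rank 6315. The signal was 12, 17.1 and 18.5 in replicates 1, 2 and 3, which gave a relative signal of 0.255, 0.356 and 0.560 and a mean of 0.390 ± 0.155 (SD, n = 3). A call in a coding exon, 2919 bp past the TSS, was at a similar level, with a pooled signal of 47.5. Its relative signal was 0.510, 0.430 and 0.434 in replicates 1, 2 and 3, with a mean of 0.458 ± 0.0453 (SD, n = 3). The calls were ordered differently by the pooled signal and by the mean relative signal. The difference between the means was smaller than the SD of the upstream call but larger than that of the coding call. Neither site held any of the 13 words within 50 bp, although 1 lay in the whole interval of the upstream call.

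Across the family, the order of the mean relative signal at the strongest call was sna, esg, wor and scrt, the same as that of the pooled signal. The lowest replicate of sna, at 2.51, was above the highest replicate of every other member, at 0.965, whereas esg and wor differed by less than the spread between replicates. The ranges of esg and scrt overlapped as well, as the highest scrt value of 0.560 was above the lowest esg value of 0.483. The replicates of wor and scrt overlapped too, so that only the gap between sna and the other members separated all replicates.

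**Figure D3:**
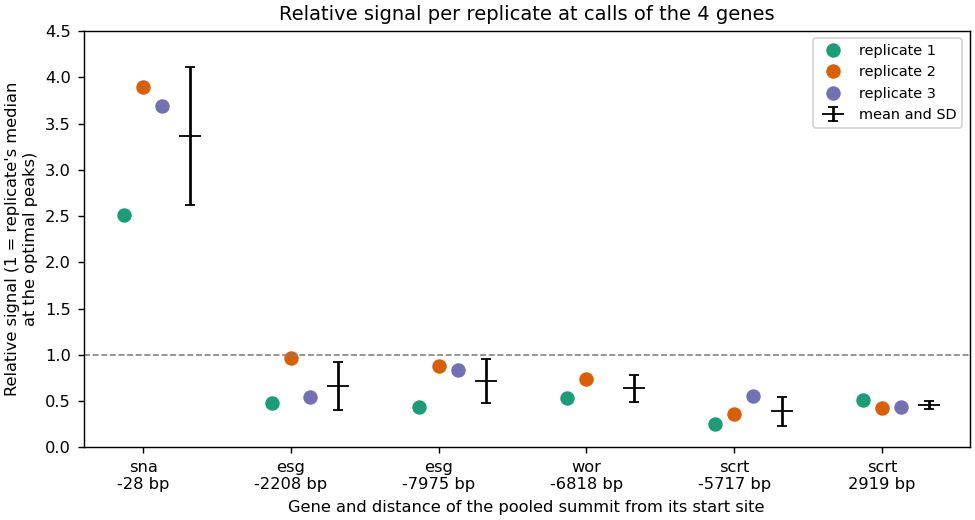
Relative signal on the y axis (signal over the median at the optimal peaks of the same replicate, dashed line at 1) at 6 calls of the 4 genes, named on the x axis by the distance of the pooled summit from the TSS, with a point for each replicate and the mean and SD beside them. The sna promoter lies between 2.51 and 3.90, and all points of esg, wor and scrt lie under 1. The replicate 3 point at -7975 bp is shared with the call at -7775 bp.

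**Figure D4:**
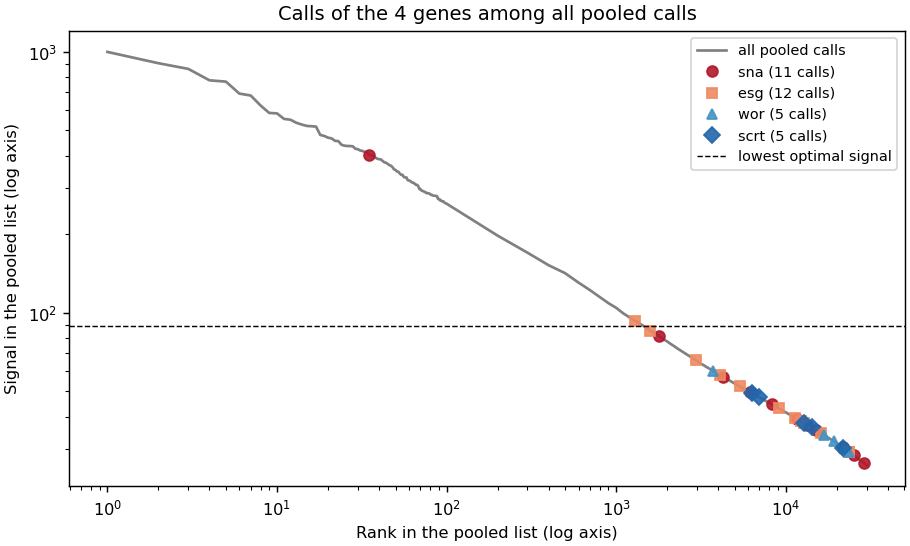
Signal of the pooled calls on a log y axis against their rank on a log x axis, as a line for all 30000 calls and symbols for the 33 calls of the 4 genes, with a dashed line at the lowest optimal signal. The strongest sna call is at rank 35 and the strongest esg call at rank 1297, and the strongest calls of wor and scrt are at ranks 3732 and 6315, under the line.

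The genes differed also in how many weak calls surrounded them. The pooled list held 11 calls around sna, 12 around esg, 5 around wor and 5 around scrt. Per 10 kb of window this was 5.08 for sna, 5.39 for esg, 2.24 for wor and 1.66 for scrt, beside a median of 2.86 over all genes. The order of this density was not that of the strongest signal, since esg had more calls per length than sna. In the separate lists, sna had 12, 13 and 7 calls and esg 12, 12 and 8 in replicates 1, 2 and 3, so that replicate 3 had the fewest at both. wor had 5, 4 and 6 calls, and scrt had 5, 9 and 6. Of the 33 pooled calls at the 4 genes, 36.4% had a call within 200 bp in every replicate, beside 20.6% of all pooled calls. By gene these were 5 of 11 calls at sna, 4 of 12 at esg, 1 of 5 at wor and 2 of 5 at scrt. A replicate call could match 2 neighbouring pooled calls, as at the sna shoulder and the pair upstream of esg.

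The genes esg, wor and sna lie in 1 cluster on 2L, and the optimal summits of sna and esg lay upstream of these genes, outside the span between them. The span from the start of esg to the end of sna was 144395 bp long and held 6 protein-coding genes (esg, CG15258, CG44869, wor, CG4161 and sna). It held 0 optimal summits, beside 1.10 per 100 kb over the main chromosome arms. As esg and sna are transcribed toward each other, the optimal summits upstream of these genes lay outside the span. The sna summit lay 28 bp beyond its end, and the called interval reached into the span. The 40 pooled calls within the span came to 2.77 per 10 kb, beside 2.24 over the main chromosome arms. The strongest of them, with a signal of 68.1, lay 18349 bp from the TSS of CG15258, outside the windows of the family. Beyond the cluster, the optimal peak next to that of sna was 20951 bp away at lace (98.4), and the one next to that of esg was 19815 bp away, with a signal of 117. The median distance between an optimal peak and its nearest neighbour was 16032 bp, and 43.1% of optimal peaks had a larger gap than the sna peak and 44.3% a larger gap than the esg peak.

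The sna peak was set beside others of the same size. The optimal peaks next to it in rank were those of CG9147 (411), fs(1)h (413), the gene of a bromodomain protein, Cdk4 (401), the gene of a cyclin-dependent kinase, and CdGAPr (399). The 5 optimal peaks whose relative signals over the 3 replicates were most like those of sna, by Euclidean distance on the log2 scale, were those of gish at 0.29, CG9147 at 0.34, CenG1A at 0.44, Sox14 at 0.56 and CtsF at 0.58. Their relative signals ranged from 2.89 to 3.73 in replicate 1, from 3.44 to 3.67 in replicate 2 and from 3.17 to 3.67 in replicate 3. The sna peak was thus lower than all 5 in replicate 1 and higher than all 5 in replicates 2 and 3. All 5 summits lay near a TSS, between -239 and 80 bp.

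Genes that work with the Snail proteins were counted in lists chosen with earlier results of these data known. Of 2 other genes of the Snail superfamily, Kah had an optimal peak 231 bp upstream of its TSS, with a signal of 149, and CG12605 had none. Of 24 genes of the mesoderm and dorsoventral network, 10 (41.7%) had an optimal summit in the window, beside 32.3% of all protein-coding genes, but 2 had it within 1 kb of a TSS, beside 8.73% of all. The window includes the gene body, so long genes can hold more summits, and gene length was not matched. The strongest summits counted for NetA, ths and pyr lay 51142, 37565 and 23510 bp from the 5′ ends of these genes. That of NetA lay 206 bp from the TSS of sbm, and that of T48 lay 11 bp from the TSS of Rb97D. Without replicate 1, 2 or 3, the counts were 5, 5 and 7 in the window and 0, 0 and 1 near a TSS. The highest signal was 456 in the window of Mef2, the gene of a muscle differentiation factor, but the nearest TSS was that of Pal1. The others among the highest 4 were mthl1 (listed as mist, the receptor of the Fog signal) with 298, where the nearest TSS was that of Rok, zfh1, the gene of a mesodermal zinc-finger and homeodomain protein, with 286, and cact, the inhibitor of Dorsal, with 216. The direct activators of sna had no optimal peak, with a strongest pooled signal of 88.2 for twi and 46.7 for dl.

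Of 19 neuroblast genes, 7 (36.8%) had an optimal summit in the window, beside 32.3% of all genes, and 1 within 1 kb of a TSS, beside 8.73%. The highest signals were 208 for insc, 180 for brat, 144 for baz and 133 for pros. These genes act in the asymmetric division and fate of neuroblasts. The insc summit lay 2020 bp upstream of the insc 5′ end and equally far from the TSS of sktl, which was listed as the nearest. The strongest pros summit lay 64553 bp from the 5′ end of pros, and the nearest TSS was that of mRpL40. The proneural and neuroblast factors ase (47.3), dpn (67.9) and l(1)sc (72.1) had no optimal peak. Of 6 corepressor genes, 4 had an optimal summit in the window, beside 32.3% of all genes, and 3 within 1 kb of a TSS, beside 8.73%. In the same smaller sets of 758, 806 and 826 peaks, these counts were 1 and 1 without replicate 1, 2 and 2 without replicate 2, and 2 and 1 without replicate 3. The shares of 32.3% and 8.73% belong to the full list and are no background for these sets. These 4 were ebi (166) and gro (162), with summits 102 and 97 bp upstream of the TSS, CoRest (100.9) and HDAC1 (94.7, nearest TSS that of Src64B), whereas CtBP, a corepressor that Snail binds, reached 78.5 in the pooled list. The median of the strongest pooled signal was 76.6 for the 4 Snail family genes, 101.1 for the 2 others of the superfamily, 81.8 for the mesoderm and dorsoventral list, 73.6 for the neuroblast list and 97.8 for the corepressors, beside 68.0 for all genes. All of these medians were far below the signal at sna.

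**Figure D5:**
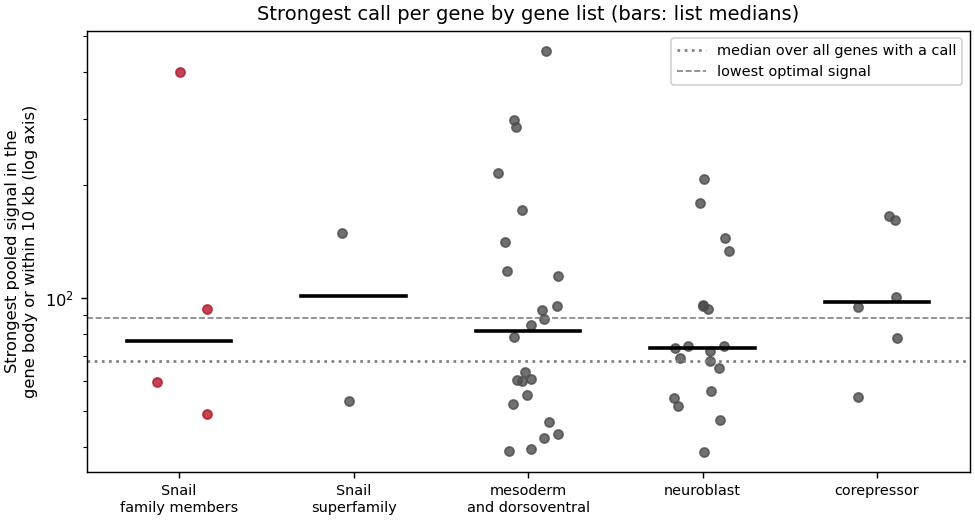
Strongest pooled signal in the window of each gene on a log y axis, for the Snail family and 4 other gene lists on the x axis, with 1 point a gene, bars for list medians, a dotted line for the median over all genes with a call and a dashed line for the lowest optimal signal. The sna value of 402 is above all genes of the other lists except Mef2 at 456, and the list medians lie between 73.6 and 101.1.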

How the data were processed

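For each of the 3 biological replicates and for their pool, the authors deposited a relaxed list of peaks and background, and for all libraries an optimal list that passed their test of reproducibility (irreproducible discovery rate, IDR). Per the text deposited with the files, peaks were called against a control, which was not analysed here. Neither the aligner and caller nor the IDR cutoff was given in the sources used here. The deposited signal value per call has its own scale in each list and was used to rank and describe calls. The deposited −log10 q-value had a ceiling and was used in 1 alternative only. The summit came from the summit offset, another measure, that the authors deposited. The lists hold no counts, so depth is unknown and no floor was given.

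The dm6 lists were joined to the Ensembl release 115 annotation (BDGP 6.54) with Python 3.11.15, pandas 2.3.3 and numpy 2.4.6. The dm3 lists were not used here. Replicate calls were matched within 200 bp of a summit. Over all genes, the exact 95% Clopper-Pearson interval was 31.5% to 33.0% for a summit in the window and 8.26% to 9.21% for 1 within 1 kb of a TSS, for counting error only. Members, lists and words were chosen with earlier results of these data known. Genes were named as members, as holders of or neighbours to their peaks, as the 4 highest optimal signals of each list, or as the 5 peaks most like that of sna. Other genes were chosen after their values were seen. These were the rank neighbours, the TATA promoters, and listed genes named without an optimal peak or for where their summit lay. A planned comparison of the 4 proteins was not made. With 1 group there was no test between samples. Alternatives were other windows, matching distances, scales, stricter peak sets and leaving out each replicate. Scripts were tested on simulated data.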

Additional observations from a re-analysis of the deposited data

How the results depend on the processing

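Of 154 alternative values for 27 results, 116 stayed within 1.5 times the main count or within 1 SD of the main value, and 38 moved. The order of the 4 genes by pooled signal gave 6 of 6 pairs in the same order with −log10 q and with relative signal, and 5 by rank percentile. The −log10 q belongs to the same pooled calls and fell with their signal, so it was no separate check. Added after the data were seen, the order in single libraries gave 4 pairs in replicate 1, 6 in replicate 2 and 5 in replicate 3. In the gene body alone, sna and esg had 0 optimal summits. The esg window held 0 optimal summits among the 736 peaks of highest signal and 0 among the 638 peaks matched in all 3 replicates. It also held 0 among the peaks matched in both other replicates when any replicate was left out, whereas sna kept its peak. The counts for esg that required such matches were fixed, as its peak had a top call in 1 replicate only. The esg peak had a top call in 0 replicates when the top lists were cut in size and in 3 when the whole lists were used. With the median of all calls of a library as the scale, the relative signal was 9.56 for sna, 1.90 for esg, 1.95 for wor and 1.09 for scrt, so that wor stood above esg. Around scrt, pooled calls came to 2.59 per 10 kb with 20 kb to either side. Of the mesoderm and dorsoventral list, 6 genes had a summit in the window among the upper peaks, 5 among those matched in all replicates, and 5 to 7 without a replicate. Near a TSS, that list had 1 gene at 500 bp, 5 at 2 kb, 1 among the upper peaks, 0 among those matched in all replicates, and 0 to 1 without a replicate. The neuroblast list had 4 genes among the upper peaks. The corepressor list had 2 among the upper peaks, 1 matched in all replicates and 1 to 2 without a replicate, and near a TSS 1 matched in all replicates and 1 to 2 without a replicate. Of the 13 words, the wor summit had 1 in a wider window and 3 in the whole called interval, scrt 1 in the whole interval and esg 1 in a narrower window. The stricter sets hold fewer peaks by construction, and the cause of the other changes was not tested.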
